A study of Mus musculus with 12 samples.

Results

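The genes described here are 9 components of the Wnt supply of the gut mesenchyme: the ligands Wnt5a, Wnt4, Wnt9a and Wnt2b, the R-spondins Rspo1, Rspo2 and Rspo3, and the Wnt secretion genes Wls and Porcn. They were taken by gene symbol from the count table, and all 9 were found among its 24411 symbols. RNA was sequenced from 12 libraries of untreated primary colonic myofibroblasts. These mesenchymal cells were cultured from the distal colon of C57BL/6 mice aged 16 weeks and were collected at passage 6 to 8, on day 5 in Matrigel. The 6 knockout libraries came from TNFR1-/- mice, which lack tumor necrosis factor receptor 1, and the 6 control libraries from TNFR1-/+ mice, which carry a single null allele, so the controls are heterozygous and not wild type. The series asks what TNFR1 does in the colonic mesenchyme and in its exchange with the epithelial stem cell niche. Nothing in the sources used here says how many animals or cultures stand behind each group, so p-values measure only the spread between these libraries, which may be technical.

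Wnt proteins are secreted lipid-modified ligands. Porcn, an acyltransferase of the endoplasmic reticulum, attaches the lipid, and Wls carries the modified ligand to the cell surface, so both act on Wnt ligands in general. Wnt ligands bind Frizzled receptors, and depending on the receptor partners they stabilise beta-catenin or act through noncanonical routes such as planar cell polarity. R-spondins bind Lgr receptors and the ubiquitin ligases Rnf43 and Znrf3, which otherwise remove Frizzled receptors from the surface, and so they raise the response of a cell to Wnt. In the gut, mesenchymal cells around the crypts are a major source of R-spondins and of several Wnt ligands for the epithelial stem cells.

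Total counts were 6543013 to 9937008 in knockout and 11890729 to 16458689 in control libraries. By overall profile there were 4 sets of libraries: knockout 1 to 4, the pair of knockout 5 and 6, then control 1 to 5, with control 6 by itself. Spearman correlations across genes were 0.989 to 0.998 within sets 0.927 to 0.955 between sets of 1 genotype and 0.884 to 0.976 between genotypes, so some knockout and control libraries were more alike than libraries of 2 sets of 1 genotype. Values are therefore given by set as well as by genotype. Tnfrsf1a, which encodes TNFR1, stood at 40.6 to 46.1 CPM (counts scaled to a common library size) in knockout and 54.9 to 81.3 CPM in control libraries, so its transcript was lower but still read. The exons behind those reads are not known from a table of counts per gene. Myofibroblast markers (Col1a1, Col1a2, Col3a1, Vim, Acta2, Pdgfrb and Pdgfra) were abundant in every library, with sums of 29053 to 29710.4 CPM in knockout 1 to 4 against 10705 to 10757 CPM in the pair of knockout 5 and 6, and of 23390.4 to 24682.5 CPM in control 1 to 5 against 32609.5 CPM in control 6. Of these 7 markers only Vim was higher in knockout 5 and 6 (3888.2 CPM) than in knockout 1 to 4 (3720.4 CPM). Col1a1 was at 2047.7 and 11120.5 CPM in the same sets. In the test of knockout against control, 2 (Vim and Acta2) were called higher and 2 (Col3a1 and Pdgfra) lower, beside 21.4% and 21.6% of all genes tested. Of 9 epithelial markers, Epcam, Cdh1 and Vil1 had at most 1 count in any library. Krt19 (up to 169 counts) and Krt20 (up to 116 counts), however, were read. The 9 summed to 14.9 to 23.3 CPM in knockout and 7.49 to 20.2 CPM in control libraries, and neither of the 2 tested (Krt19 and Krt20) passed.

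By level, 4 of the 9 genes (Wnt5a, Wnt9a, Wls and Porcn) were expressed, with at least 1 CPM in all 12 libraries. Rspo1 was near-absent, under 0.5 CPM in all 12. The other 4 (Rspo2, Rspo3, Wnt2b and Wnt4) met neither condition, and of these Rspo3 was under 1 CPM in knockout 6 only. The filter on low counts kept 6 genes, and each of these 6 was past it in all 6 control libraries. It left out Wnt2b, Wnt4 and Rspo1. In the edgeR quasi-likelihood test of knockout against control, with p-values adjusted by Benjamini-Hochberg over 12146 genes, 1 of the 6 (Wnt5a) was higher, 2 (Rspo3 and Porcn) were lower and 3 (Wnt9a, Rspo2 and Wls) did not pass the threshold of 0.05. The same threshold called 43% of all genes tested, 21.4% higher and 21.6% lower, so 3 calls among 6 genes is close to the background. The median log2 difference of the 6 was 0.01, and that of all genes tested was 0.02.

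**Figure D1:**
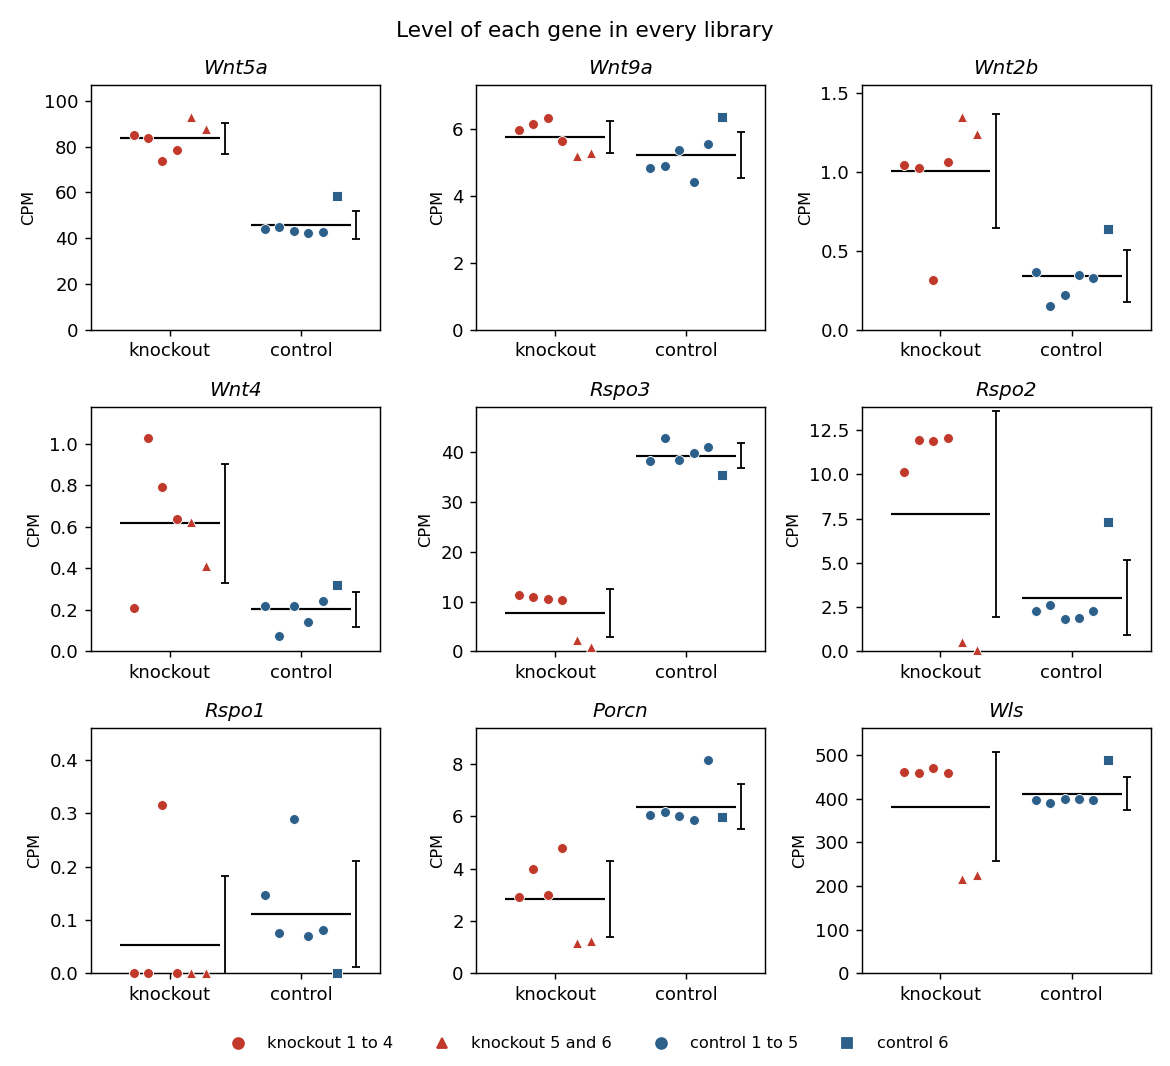
CPM (vertical axes, from 0) of the 9 genes in each of the 12 libraries, with a line at the mean and a bar of 1 SD for each genotype (n = 6; the Rspo1 knockout bar reaches the axis at 0) and symbols for the 4 sets of like libraries. Wnt5a lies higher in all 6 knockout libraries, and Rspo3 and Porcn lie lower in all 6. Rspo2, Rspo3, Porcn and Wls all lie lower in knockout 5 and 6 than in knockout 1 to 4.

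Wnt5a, a ligand best known for noncanonical signalling, had 466 to 918 counts per library. The 6 knockout libraries read 85.3, 83.5, 73.7, 78.5, 93.0 and 87.5 CPM, from replicate 1 to 6. In control 1 to 6 it was 43.9, 44.7, 43.3, 42.1, 42.8 and 58.4 CPM. All 6 knockout libraries were above all 6 controls, and control 6 was the highest control. Groups did not overlap in this direction for 10.6% of the genes tested. The fitted difference was 1.82-fold higher in the knockout (log2 difference 0.87, 95% interval 0.66 to 1.07; edgeR adjusted p = 3.45e-05). Between sets, the log2 difference was 0.90 and 1.06 against control 1 to 5, for knockout 1 to 4 and for knockout 5 and 6. Against control 6 these were 0.47 and 0.63. The 2 knockout sets were close to each other for Wnt5a, at 80.7 and 90.2 CPM. An antisense gene overlaps Wnt5a, and another overlaps Rspo3. Neither is a row of the table, and reads from them cannot be told apart from those of Wnt5a and Rspo3 without strand.

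When counts were summed over the 4 sets, so that each set stood as 1 sample, 0 of 13132 genes (0%) passed the edgeR adjusted p of 0.05, and 1047 had an unadjusted p under 0.05. DESeq2 called 198 genes and limma-voom 0 on the same sums. In that fit Wnt5a had a log2 difference of 0.75 with an edgeR adjusted p of 0.613, the same adjusted p as Rspo3 and Porcn, and DESeq2 called Rspo3 alone of the genes described here (adjusted p = 0.041).

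Wnt9a, a ligand that can signal through beta-catenin, was low and level. The knockout libraries, in order of replicate, read 5.96, 6.16, 6.33, 5.64, 5.19 and 5.28 CPM. The control libraries read 4.82, 4.90, 5.37, 4.41, 5.55 and 6.36 CPM. The groups overlapped, and control 6 was the highest of all 12 libraries. The log2 difference was 0.13 with a 95% interval of -0.13 to 0.40 (edgeR adjusted p = 0.387). The interval holds 0 and leaves out a 1.5-fold change in either direction. It measures only the spread between these 12 libraries, which form 4 sets, so it does not bound a difference between animals.

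Wnt2b, a canonical ligand of the gut mesenchyme, was read at 2 to 13 counts per library. It had 10, 8, 2, 10, 13 and 12 counts in knockout 1 to 6 and 5, 2, 3, 5, 4 and 10 counts in control 1 to 6. As CPM this was 1.05, 1.03, 0.316, 1.06, 1.35 and 1.24 against 0.365, 0.151, 0.218, 0.350, 0.326 and 0.636. Of the knockout libraries 5 lay above every control, and knockout 3, the shallowest library, lay within the control range. The summed counts gave 1.05 CPM in knockout (exact Poisson 95% interval 0.791 to 1.37, counting error only) and 0.349 CPM in control (0.234 to 0.502).

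Wnt4, which can act with or without beta-catenin, had 1 to 8 counts per library. Its counts were 2, 8, 5, 6, 6 and 4 in knockout 1 to 6 and 3, 1, 3, 2, 3 and 5 in control 1 to 6. The sums gave 0.592 CPM in knockout (0.402 to 0.840) and 0.205 CPM in control (0.119 to 0.328). Knockout 1, at 0.209 CPM, lay within the control range of 0.0753 to 0.318 CPM, and the other 5 knockout libraries lay above it. Neither gene had enough counts for the main test. With no filter on low counts, a fit that called 30.9% of 17461 genes, both were called higher, Wnt2b with a log2 difference of 1.53 (edgeR adjusted p = 0.00703) and Wnt4 with 1.505 (0.014). In the 4 summed sets their log2 differences were 1.34 and 1.31, with an edgeR adjusted p of 0.629 for each.

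The other 15 Wnt ligands and Rspo4 were outside the main test altogether, since none of these 16 genes passed the filter. Of the 16, 5 had no count in any library (Wnt3, Wnt7a, Wnt8a, Wnt9b and Rspo4), and 4 more had at most 1 count in a library. Summed over the 16 genes, the level was 8.90 to 11.4 CPM in knockout 5 and 6, beside 1.99 to 3.32 CPM in the other knockout libraries, 1.14 to 2.12 CPM in control 1 to 5 and 3.56 CPM in control 6. Most of that excess was in Wnt11 and Wnt2, which are named after their values were seen. Wnt11, a noncanonical ligand, reached 5.39 CPM in knockout 5 and 6, beside 0.423 CPM for the other knockout libraries, 0.312 CPM for control 1 to 5 and 1.14 CPM for control 6. Wnt2 stood at 2.80, 0.937, 0.282 and 0.572 CPM in the same order.

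Rspo3, an R-spondin made by mesenchymal cells near the crypt base, was the gene of the 9 with the widest gap between genotypes. The knockout libraries, in order of replicate, read 11.4, 10.9, 10.4, 10.3, 2.28 and 0.828 CPM, from 109, 85, 66, 97, 22 and 8 counts. In control 1 to 6 it was 38.2, 42.8, 38.5, 39.9, 41.1 and 35.4 CPM, from 504 to 570 counts. The groups were far apart, as the highest knockout value was 11.4 CPM and the lowest control 35.4 CPM. The fitted difference was 5.15-fold lower in the knockout (log2 difference -2.36, 95% interval -3.31 to -1.42; edgeR adjusted p = 0.00102). Groups did not overlap in this direction for 12.5% of the genes tested. In a bulk sample, fewer cells that make a transcript and less of it per cell cannot be told apart.

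Within the knockout group Rspo3 was 6.95-fold higher in knockout 1 to 4 (10.8 CPM) than in knockout 5 and 6 (1.55 CPM). The control sets were close, at 40.1 CPM in control 1 to 5 and 35.4 CPM in control 6. Against these, knockout 1 to 4 gave log2 differences of -1.89 and -1.71, and knockout 5 and 6 gave -4.69 and -4.51. Without knockout 5 and 6 the log2 difference was -1.87 (edgeR adjusted p = 8.73e-08). The order of the sets was thus control 1 to 5 and control 6, then knockout 1 to 4, then knockout 5 and 6.

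Rspo2, another mesenchymal R-spondin, had a different order. Its values were 10.1, 11.93, 11.86, 12.03, 0.519 and 0.103 CPM over the knockout replicates, from 97, 93, 75, 113, 5 and 1 counts. In control 1 to 6 it was 2.27, 2.64, 1.81, 1.89, 2.28 and 7.31 CPM, from 31, 35, 25, 27, 28 and 115 counts. Knockout 1 to 4 were above all 6 controls, and knockout 5 and 6 were below all 6. Knockout 1 to 4, at 11.4 CPM (exact Poisson 95% interval 10.3 to 12.6, counting error only), were 36.8-fold above knockout 5 and 6, at 0.311 CPM (0.114 to 0.677). Control 6 was 3.37-fold above control 1 to 5. Over all libraries the log2 difference was 1.33 with a 95% interval of -0.24 to 2.90 (edgeR adjusted p = 0.157).

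The sign of the Rspo2 difference thus depended on the knockout set. Knockout 1 to 4 gave log2 differences of 2.40 against control 1 to 5 and 0.64 against control 6, while knockout 5 and 6 gave -2.80 and -4.56. Without knockout 5 and 6, Rspo2 was called higher (log2 difference 1.90, edgeR adjusted p = 0.00126), in a fit that called 52% of 12471 genes. Leaving out knockout 6 alone also brought it past the threshold (log2 difference 1.59, edgeR adjusted p = 0.0403), where 41.5% of genes were called. Limma-voom on all 12 libraries gave a log2 difference of only 0.19 (adjusted p = 0.898).

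**Figure D2:**
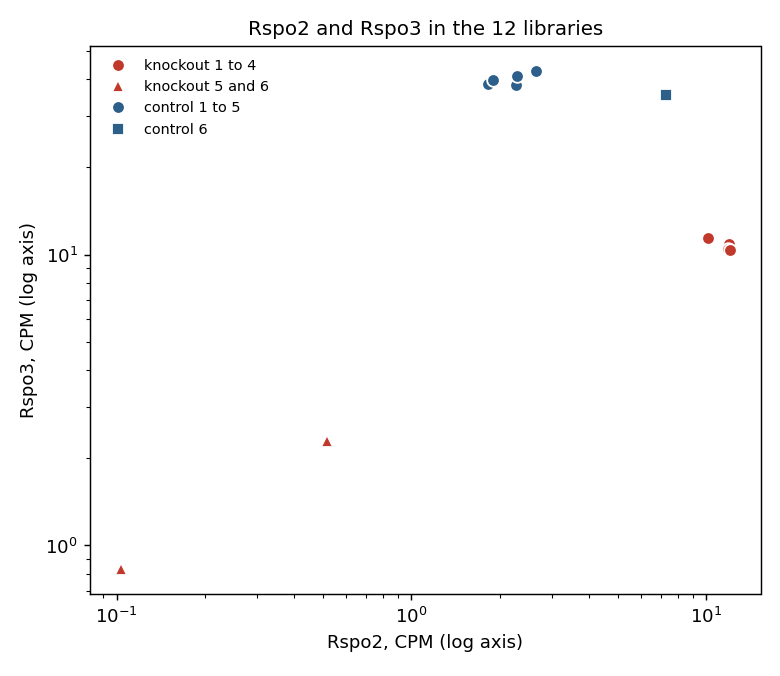
Rspo2 (horizontal) against Rspo3 (vertical), both in CPM on log axes, 1 point per library. Knockout 1 to 4 combine high Rspo2 with intermediate Rspo3, knockout 5 and 6 are lowest for both, and control 6 shares the Rspo3 level of the other controls but has more Rspo2.

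Rspo1, which enhances Wnt signals in the same way, was close to undetected. It had 0, 0, 2, 0, 0 and 0 counts in knockout 1 to 6 and 2, 1, 4, 1, 1 and 0 counts in control 1 to 6. The sums were 2 counts in knockout, or 0.0382 CPM (exact Poisson 95% interval 0.00463 to 0.138), and 9 counts in control, or 0.108 CPM (0.0496 to 0.206). These intervals overlap, and a difference was not detectable at this depth. In a library with 0 counts the level could be up to 0.191 CPM (control 6) to 0.385 CPM (knockout 2), taking 3 counts as the limit. Control 3, with 4 counts, was the only library above its own limit for Rspo1.

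Other markers moved with the same libraries. The summed level of smooth muscle markers (Des, Myh11, Actg2, Cnn1, Synpo2 and Lmod1) was 2285.6 to 2369.5 CPM in knockout 1 to 4 but 838.8 to 850.5 CPM in the pair of knockout 5 and 6. It was 472.9 to 554.1 CPM in control 1 to 5 and 1139.8 CPM in control 6, the same order as Rspo2 except for knockout 5 and 6. Of these 6 markers, 4 were called higher and 0 lower. The interstitial cell of Cajal markers were Kit, Ano1 and Etv1. In the same order of sets they summed to 19.6 to 23.6, 3.84 to 4.76, 8.40 to 10.7 and 22.5 CPM. Kit had at most 4 counts in a library and was not tested, so nearly all of this sum was Ano1 and Etv1. Ano1 stood at 14.6, 1.45, 0.832 and 8.65 CPM over these sets and was called higher (edgeR adjusted p = 0.0451). Etv1, at 7.29, 2.85, 8.47 and 13.9 CPM, had a log2 difference of -0.70 and did not pass (edgeR adjusted p = 0.0577). Markers of trophocyte-type fibroblasts (Cd34, Cd81, Pi16, Ackr4, Grem1 and C3), the crypt-base cells known for R-spondin and Grem1, summed to 1195.7 to 1283.0 CPM in knockout 1 to 4, 442.3 to 467.1 CPM in knockout 5 and 6, 819.1 to 872.2 CPM in control 1 to 5 and 1888.4 CPM in control 6, the same order of sets as Wls. Within that list Ackr4 was at 2.66, 0, 0.996 and 7.76 CPM in the same sets, while Pi16 and C3 were lower in all 6 knockout libraries. Of the 6 genes, 2 (Pi16 and C3) were called lower and 0 higher. The 9 macrophage and leukocyte markers summed to 38.2 to 55.7 CPM in knockout and 74.9 to 125.7 CPM in control libraries, and 5 of the 8 tested were lower and 0 higher. Beside these counts, 21.4% of all genes tested were called higher and 21.6% lower. Rn45s, the ribosomal RNA precursor, took 7.01% and 8.25% of the counts in knockout 5 and 6 and 0.351% to 2.097% elsewhere. Telocyte-type markers were split. Gli1, Bmp5 and Bmp7 had at most 5 counts in a library and were not tested, and Foxl1 was at 1.32 CPM in knockout and 1.08 CPM in control and did not pass. F3 was abundant and called higher, at 647.4 CPM in knockout and 260.7 CPM in control (edgeR adjusted p = 0.0115), though control 6, at 702.7 CPM, lay within the knockout range. Pdgfra was called lower, at 107.3 and 194.7 CPM (edgeR adjusted p = 0.000279). The sum of the 6 was 679.1 to 906.4 CPM in knockout, 352.3 to 362.8 CPM in control 1 to 5 and 957.8 CPM in control 6. The part of each of these in the values of the Wnt and R-spondin genes was not tested.

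Porcn was lower in the knockout. Over the knockout replicates it was 2.93, 3.98, 3.01, 4.79, 1.14 and 1.24 CPM, from 11 to 45 counts. Over the control replicates it was 6.07, 6.18, 6.02, 5.88, 8.16 and 5.98 CPM, from 82 to 100 counts. Every knockout library was below every control, with knockout 5 and 6 lowest and control 5 highest. Such a gap in this direction was found for 12.5% of the genes tested. The fitted difference was 2.25-fold (log2 difference -1.17, 95% interval -1.81 to -0.52; edgeR adjusted p = 0.00742). For knockout 1 to 4 the log2 differences were -0.79 and -0.68 against control 1 to 5 and control 6, and knockout 5 and 6 gave -2.43 and -2.33. Without knockout 5 and 6 the log2 difference was -0.78 (edgeR adjusted p = 0.00277), and in a test against a fold of 1.5 over all libraries, which called 9.66% of genes, Porcn did not pass (edgeR adjusted p = 0.0896).

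Wls was read at 2077 to 7694 counts per library. Over the knockout replicates it was 460.9, 460.6, 471.9, 460.1, 215.5 and 225.6 CPM. Over the control replicates it was 397.4, 391.1, 400.3, 400.0, 396.8 and 489.3 CPM. In knockout 1 to 4 it lay between control 1 to 5 and control 6, and knockout 5 and 6 were below every other library. Over all libraries the log2 difference was -0.11 with a 95% interval of -0.55 to 0.33 (edgeR adjusted p = 0.695). Its sign turned without knockout 5 (0.01) and without knockout 6 (0.0063), and it was 0.17 without both (edgeR adjusted p = 0.0865). With control 6 left out as well, 5 of the 6 tested genes passed, Wls and Rspo2 among them as higher, but that fit called 71.3% of genes, and in it genotype and set cannot be told apart. Levels in knockout 1 to 4 were 2.098-fold above knockout 5 and 6 for Wls, 3.12-fold for Porcn and 6.95-fold for Rspo3.

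**Figure D3:**
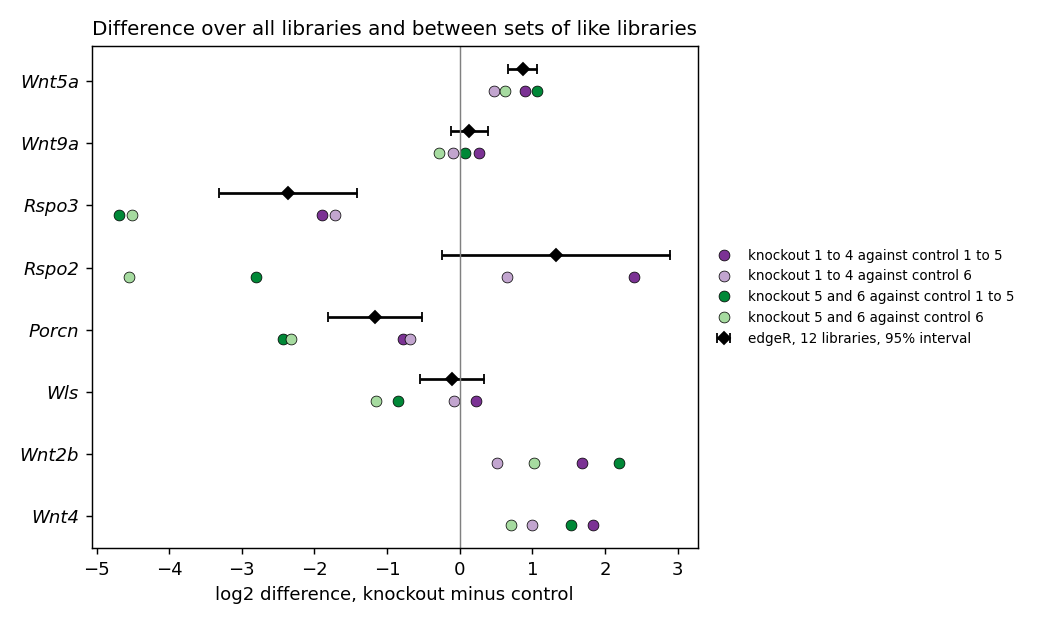
Log2 difference, knockout minus control (horizontal axis), for 8 of the 9 genes, Rspo1 having too few counts. Diamonds with bars are the edgeR estimate over 12 libraries with its 95% interval for the 6 genes tested, and circles set each knockout set against each control set, 4 contrasts that share sets and have no error of their own. Circles for Wnt5a, Wnt2b and Wnt4 are all above 0, and those for Rspo3 and Porcn all below. Those for Rspo2, Wnt9a and Wls fall on both sides.

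Genes that move Wnt ligands through the cell were read in all libraries. Of 11 tested members of the export and recycling list (p24 cargo proteins, the retromer that returns Wls from endosomes, and its sorting nexins), 1 was higher, 3 were lower and 7 did not pass, with a median log2 difference of -0.00059. These 4 calls of 11 compare with 43% of all genes tested, and without knockout 5 and 6 the list gave 3 higher and 3 lower, where 52% of genes were called. The p24 protein Tmed9 fell from 366.5 ± 41.2 to 225.7 ± 30.8 CPM (SD, n = 6 each; edgeR adjusted p = 0.000437). Tmed2 fell from 538.0 to 395.9 CPM (edgeR adjusted p = 0.0211), though control 6, at 321.7 CPM, was below every knockout library. Tmed5 rose from 111.8 to 141.4 CPM (edgeR adjusted p = 0.00787). Of the retromer subunits, Vps26a was at 119.2 CPM in knockout and 119.5 CPM in control, and Vps35 at 281.9 and 250.1 CPM, and neither passed.

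Among Wnt receptors and co-receptors, 14 of 16 were tested, and 4 were higher, 2 lower and 8 not past the test, with a median log2 difference of 0.10. These 6 calls of 14 are at the background of 43%. Fzd5 rose from 16.2 ± 2.92 to 36.4 ± 3.87 CPM and Fzd7 from 132.5 ± 38.9 to 279.4 ± 15.1 CPM (SD, n = 6 each; edgeR adjusted p = 2.76e-05 and 0.000165). Fzd1 fell from 135.3 ± 14.9 to 58.5 ± 12.7 CPM (edgeR adjusted p = 5.63e-05). For these 3 receptors the genotypes did not overlap, as for 10.6% of all tested genes in the higher and 12.5% in the lower direction. Ror2, a receptor through which Wnt5a can act, was at 41.0 CPM in knockout and 50.9 CPM in control and did not pass (edgeR adjusted p = 0.149). Ryk, of the same list, was called higher, at 242.1 CPM in knockout and 188.4 CPM in control (edgeR adjusted p = 0.00598). Control 6, at 231.8 CPM, lay within its knockout range. Ror2, for its tie to Wnt5a, and Ryk are named outside the rule, after their values were seen.

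Of the R-spondin receptors and their ubiquitin ligases, 4 of 7 were tested, and 2 were higher, 0 lower and 2 not past, with a median log2 difference of 0.48. The 2 calls of 4 are near the share over all genes tested, of which 43% were called and 21.4% were higher. Lgr4, an R-spondin receptor, rose from 14.8 ± 3.16 to 30.1 ± 5.49 CPM (SD, n = 6 each; edgeR adjusted p = 0.000289), with the lowest knockout library at 22.2 CPM and the highest control, control 6, at 21.1 CPM. Of all genes tested, 10.6% had groups that did not overlap in this direction. Lgr6 rose from 3.90 to 5.25 CPM (edgeR adjusted p = 0.0259), and this call was lost when knockout 4 or any one of control 1 to 5 was left out (adjusted p = 0.0521 to 0.0622), and with no filter on low counts (0.0504). Lgr5 had at most 5 counts in a library and was not tested.

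Of the secreted antagonists, 4 of 15 were tested and 2 were lower, 0 higher and 2 not past, with a median log2 difference of -0.77. These 2 calls of 4 are near the share over all genes tested, of which 43% were called and 21.6% were lower. Sfrp1, which binds Wnt ligands outside the cell, was at 197.1 to 250.7 CPM in controls, while knockout 1 to 4 had 47.9 CPM and knockout 5 and 6 had 13.9 CPM. Frzb, of the same family, was at 49.6 to 79.2 CPM in controls, while the same knockout sets had 26.0 and 7.15 CPM. Both fell with the knockout (edgeR adjusted p = 8.79e-05 and 0.0031), and their sets stood in the order seen for Rspo3 except that control 6 was above control 1 to 5.

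The beta-catenin target and feedback list had 10 of 16 genes tested, of which 4 were higher, 1 lower and 5 not past, with a median log2 difference of 0.57. These 5 calls of 10 compare with 43% of all genes tested, 21.4% higher and 21.6% lower. Under limma-voom the median of the list was 0.28. Apcdd1, a membrane inhibitor of Wnt, rose from 1.12 to 2.53 CPM (edgeR adjusted p = 0.000698). Bambi, a BMP and TGF-beta pseudoreceptor, rose from 6.14 to 12.2 CPM (edgeR adjusted p = 0.00104), though control 6, at 8.14 CPM, was above the lowest knockout library, at 8.09 CPM. Nkd1, a feedback inhibitor, fell from 5.76 to 2.35 CPM (edgeR adjusted p = 0.00193), with control 6 at 2.54 CPM, inside the knockout range. The planar polarity and noncanonical list had 13 of 17 tested, with 1 higher, 2 lower and 10 not past and a median of 0.10. Its 3 calls of 13 are below the share of 43% over all genes tested. Dvl2, a cytoplasmic mediator of Wnt, fell from 58.7 to 40.5 CPM, and the formin Daam1 rose from 20.1 to 26.9 CPM (edgeR adjusted p = 0.00133 and 0.00885). For both, control 6 lay inside the knockout range. It was at 43.6 CPM for Dvl2 (knockout 36.3 to 46.7 CPM) and 25.2 CPM for Daam1 (knockout 22.5 to 30.0 CPM). The polarity protein Vangl2 fell from 9.35 to 6.89 CPM (edgeR adjusted p = 0.0286), a call lost in 7 of the 12 fits that left out 1 library, those without knockout 1, 2, 3 or 4 or control 2, 3 or 4 (adjusted p = 0.0515 to 0.0638). Without knockout 5 and 6 this list gave 3 higher and 3 lower of 13, in a fit that called 52% of all genes.

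**Figure D4:**
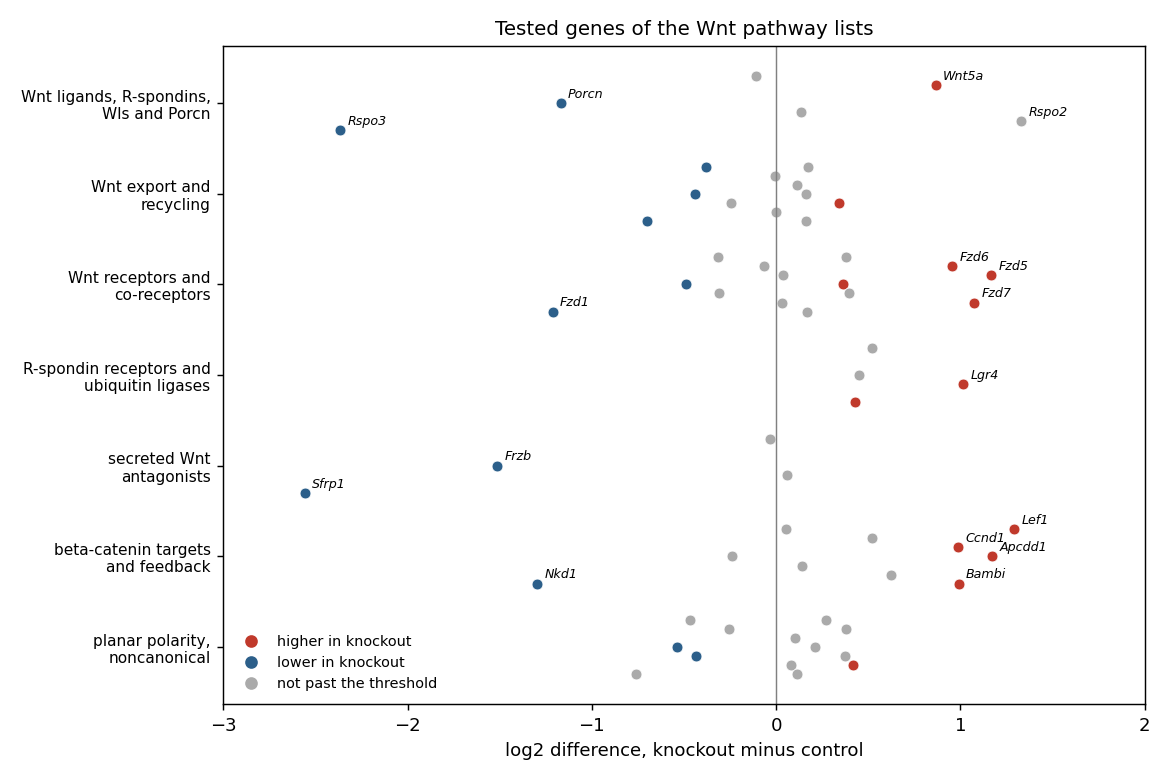
Log2 difference, knockout minus control (horizontal axis), of each tested gene in the Wnt lists, coloured by its edgeR call at an adjusted p of 0.05. Genes beyond 0.85 in either direction are named. Rspo3 and Sfrp1 lie farthest to the left, and called genes lie on both sides in every list but those of the R-spondin receptors and the secreted antagonists.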

How the data were processed

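The 12 libraries hold oligo-dT selected RNA and keep its strand through dUTP in the second strand, per the labels' protocols. The authors deposited expected counts per gene symbol, estimated reads that need not be whole. The submitters' processing notes name RSEM 1.2.15 and Bowtie2 2.1.0, and a human genome build although the symbols are mouse, so the build is not known and coordinates are left out. Neither the gene annotation nor how strand was treated in counting is given in the sources. GENCODE M21 lists antisense genes that overlap exons of Wnt5a and Rspo3, so reads from those could be counted in them.

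Counts were rounded to whole numbers (2.67% to 3.48% of values per library had decimals). Groups came from the sample titles. Low genes were removed with filterByExpr (minimum count 10, minimum total 15), scaling was by TMM, and genes were tested with edgeR 4.0.16 (quasi-likelihood, genotype only, all 12 libraries) in R 4.3.3. The SE is the log2 difference over the root of the F statistic, and 95% intervals use it with the fitted degrees of freedom. CPM use the scaled library sizes and are not per length, so levels were not compared between genes. Chi-square per degree of freedom between pairs of libraries, over genes together, was 1.38 to 9.83 within sets. No pair was thus within counting noise over genes together, and all libraries were kept apart. For the 9 genes singly, a like measure within a set ran from 0.0075 (Wnt9a) to 6.57 (Rspo3), both in knockout 5 and 6. Some of these genes thus spread no more within a set than counting noise. Poisson intervals and the limit of 3 counts cover counting error only, and reads carried no molecular identifiers known from the labels.

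The 9 genes, the pathway and marker lists and the 4 sets were chosen with earlier results of these data known. Named genes are the 9, Tnfrsf1a, and up to 3 called genes of each pathway list with the smallest adjusted p. For each called gene of the 9, the 3 genes with the nearest centred log2 CPM profile are also named, among tested genes averaging at least 2 on the log2 CPM scale (prior count 2). Marker genes, Vps26a, Vps35, Ror2, Ryk, Lgr5, Wnt11, Wnt2 and Rn45s were named outside this rule, after their values were seen. Alternatives were DESeq2 size factors, library totals, DESeq2 1.42.0, limma-voom (limma 3.58.1), 2 other filters, a replicate block, a fold of 1.5 and each library left out. Fits without knockout 5 and 6, without control 6 as well, and on 4 summed sets were added after the data were seen. The scripts were tested on simulated counts.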

Additional observations from a re-analysis of the deposited data

Results flagged for a closer look

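In 6 of 18 groups of 6 libraries (9 genes in each genotype), 1 library stood apart from the other 5 by Dixon's test on CPM. The nominal rate of that test is about 5% of groups, but 6 of 18 cannot be measured against it. The genes share the same libraries, control 6 is a set by itself, and some groups rest on a few counts. Control 6 was the high library for Wnt5a at 58.4 CPM (the next control was at 44.7 CPM), for Rspo2 at 7.31 CPM (next 2.64 CPM) and for Wls at 489.3 CPM (next 400.3 CPM). Control 5 was high for Porcn at 8.16 CPM (next 6.18 CPM). Knockout 3, the shallowest library, was low for Wnt2b at 0.316 CPM (next 1.03 CPM) from 2 counts. It was also the only knockout library with any Rspo1, at 0.316 CPM, again from 2 counts.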

How the results depend on the processing

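The calls on Wnt5a, Rspo3 and Porcn held under both other scalings, both other filters, DESeq2 and limma-voom on single libraries, and each of the 12 fits that left out 1 library. They also held without knockout 5 and 6, with or without control 6. Against a fold of 1.5, Porcn no longer passed (log2 difference -1.17, edgeR adjusted p = 0.0896), and 1173 genes did, 467 higher and 706 lower, with 8 of the pathway lists in place of 22. On 4 summed sets 0 genes passed in either direction, among them 0 of the 9 genes and 0 of the pathway lists, and the log2 differences were 0.75 for Wnt5a, -2.59 for Rspo3 and -1.32 for Porcn, while Wnt9a turned to -0.0072. That fit has 4 samples in place of 12. With no filter 5 of the 9 genes were called, in a fit that called 30.9% of 17461 genes. Without knockout 5 and 6, Rspo2 passed at 1.90 and Wls turned to 0.17. Without control 6 as well, 8827 of 12382 genes (71.3%) were called, 4319 higher and 4508 lower. Among them were 40 of the pathway lists and 5 of the 9 genes, with Rspo2 at 2.40 and Wls at 0.22. Leaving out 1 library gave log2 differences of 1.16 to 1.82 for Rspo2 and -0.18 to 0.013 for Wls, which was above 0 without knockout 5 (0.013) and without knockout 6 (0.0063). Replicate numbers are shared by the genotypes, and the labels do not say whether they pair the libraries. Deviations of same-numbered libraries from their genotype means correlated at -0.36 to 0.18. With their own number, 0 of 6 knockout libraries correlated best. These deviations largely carry the differences between sets, which fall on different replicate numbers in each genotype, so they cannot decide whether the libraries are paired. With a replicate block 3974 genes passed in place of 5219, 18 in the pathway lists, and the same 3 of the 9 genes (log2 differences of 0.87 for Wnt5a, -2.63 for Rspo3 and -1.28 for Porcn). Depth limits Wnt4, Wnt2b and Rspo1, which had at most 8, 13 and 4 counts in a library. The calls on Tmed2, Lgr6 and Vangl2 were lost under the block. The median of all tested genes moved by less than 0.1 on the log2 scale under either other scaling, and 0 called genes changed direction. The cause of these changes was not tested.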

Other observations

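The genes whose profile over the 12 libraries lay nearest to each called gene, by the root mean square difference of centred log2 CPM among 10393 genes, are given as a description, since the libraries form only 4 sets. For Rspo3 they were Cilp, a cartilage matrix protein (0.27, with 2.86 CPM in knockout and 14.8 CPM in control), Plekha4 (0.34) and Slc9a9, an endosomal sodium-proton exchanger (0.34), beside a spread of the Rspo3 profile itself of 1.70. For Wnt5a they were Lrrfip1 (0.061), Mtpn (0.064) and the actin-binding protein Coro1c (0.068), beside a spread of 0.46. For Porcn they were Dbp, a circadian transcription factor (0.18), Parp9 (0.19) and the cofilin phosphatase Ssh3 (0.21), beside a spread of 0.83.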
